A study of Homo sapiens with 2 samples.

Results

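The genes described are 5 translation elongation factor genes (EEF1A1, EEF2, EEF1B2, EEF1G and EEF1D) and TPT1, followed through the poly(A) sites that end their mRNAs. Sites were taken by gene identity and position: every site found in both read tables within a gene's window on hg19 coordinates. Tail length and read number did not enter this rule, but the genes were chosen with earlier results of these data known. This gave 6 sites in 5 of the 6 genes, of 8880 sites present in both tables. EEF1A1 had 1 site (chr6, position 74227238, minus strand), EEF2 1 (chr19, 3976054, minus strand), EEF1B2 1 (chr2, 207027652, plus strand) and EEF1D 1 (chr8, 144661864, minus strand). TPT1 had a main site (chr13, 45911270, minus strand) and a second site 315 nt further downstream (chr13, 45910955, minus strand). The EEF1G window (chr11, 62326800 to 62341500, minus strand) held no site in the tables used here, so EEF1G was not analysed here. All 6 sites were among the 914 with at least 10 reads in every subsample and among the 801 with a mean of at least 50 reads.

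The cells were HCT116, a human colon cancer line in which PABPC1 and PABPC4, the poly(A)-binding proteins of the cytoplasm, carried a degron tag, through which the auxin indole-3-acetic acid (IAA) triggers their degradation. A Sleeping Beauty transposon, which inserts at varied places in the genome, supplied either PABPC1 or PABP1212, a PABPC1 whose RRM1 and RRM2 domains are duplicated. Cells received 1 µg/mL doxycycline and 0.5 mM IAA for 13 days and were sorted by transgene expression into 4 gates of 25% of the cells each, called here the lowest, second-lowest, second-highest and highest level, beside uninduced cells of the same line. Each transgene made 1 nanopore direct RNA library of 5 barcoded subsamples, and no level was repeated. Transgene and library, and likewise level and barcode set, therefore cannot be told apart, and sorted cells differ from uninduced ones in drug treatment, sorting and barcodes as well. Since p-values here measure only the scatter about a linear course over levels, they may reflect technical spread. Values of sorted cells are listed below in ascending order of transgene level, after the uninduced value.

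During elongation, eEF1A brings aminoacyl-tRNA to the ribosome as a complex with GTP, and eEF2 moves the ribosome along the mRNA after each peptide bond. The eEF1B complex, built from the products of EEF1B2, EEF1D and EEF1G, exchanges the GDP on eEF1A for GTP. TPT1, the translationally controlled tumour protein, binds eEF1A and is known as an abundant growth-linked protein. Their mRNAs are textbook members of the class with a 5′ terminal oligopyrimidine (TOP) tract, whose translation follows mTOR signalling, and poly(A)-binding protein covers the tails of these and other mRNAs.

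The tract is shown because it is the feature that places these mRNAs in the TOP class and because the members were not chosen on sequence. RefSeq starts (GRCh38.p14) were examined for 4 of the 5 measured genes. EEF1D was left out, so whether it has the tract was not examined here. Each of the 4 genes had a listed start with a C followed by at least 4 further bases that were C or T. Of all 35116 RefSeq promoters, 1429 (4.07%) began so, read on the gene's own strand with the first base being the annotated start. This share counts promoters, whereas the members were counted by gene, with any of their listed starts. EEF1B2 has another listed start without the tract. Each line gives 20 bases before and 15 bases from the annotated start, with the tract in capitals.
EEF1A1, chr6:73521018-73521052, minus strand: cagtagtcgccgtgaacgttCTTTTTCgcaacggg
EEF2, chr19:3985449-3985483, minus strand: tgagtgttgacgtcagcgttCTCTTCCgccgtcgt
EEF1B2, chr2:206159875-206159909, plus strand: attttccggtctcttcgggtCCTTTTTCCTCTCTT
TPT1, chr13:45341169-45341203, minus strand: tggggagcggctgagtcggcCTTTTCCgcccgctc

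The other end of the mRNA is where the tail is added, and the last 30 bases before it are shown for 3 factors. They come from the GENCODE v29 transcript whose end fitted the site by its spacing to neighbouring sites, since no genome on the coordinates of the tables was at hand. The spacing rested on 21 neighbours for EEF2, 5 for EEF1B2 and 3 for EEF1A1, so the last 2 are less certain. Both fall short of the 8 neighbours required for naming other genes. The end of EEF1D, with 7 neighbours, and those of TPT1 are not shown. The capitals mark the polyadenylation signal AATAAA, which was searched on the transcript strand and was in the last 30 bases of 30.6% of 83129 protein-coding transcripts.
EEF1A1-201: tgagacccattaaaaaagttaaatgagaaa
EEF2-201: attggaatAATAAAtttgataaggtggtga
EEF1B2-201: atggcatttaAATAAAagattgaaagatta
The signal began 22 bases from the end in EEF2 and 20 in EEF1B2, and these letters were not in the window of EEF1A1. Variants of the signal were not searched for, so EEF1A1 is not shown to lack one. Its printed window holds the letters attaaa, which differ from AATAAA only by a T in place of an A.

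Depth ranged from 65862 to 630986 reads per subsample, and the PABP1212 library was the deeper of the pair at every level. The 6 sites took 1.94% to 2.43% of the reads of a subsample. The lowest level of PABP1212 stood apart in the width of its tail distributions, with a median interquartile range over the 914 sites of 110.5 nt, against 69.5 to 95.5 nt in the other subsamples. Marker genes could be placed on sites by spacing for 4 of 7 epithelial markers and for 0 of 7 fibroblast and leukocyte markers. The keratin KRT8 had 216 to 1557 reads per subsample and KRT18 115 to 953. The other placed epithelial markers were sparser, CDH1 with 2 to 43 reads and the CLDN7 sites with 14 to 130 and 9 to 127. At the annotated ends of COL1A1 and CD74 no site was found, and 5 markers of the other cell types could not be placed.

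EEF1A1 mRNA took more reads than any other site in each of the 10 subsamples, 34092 reads in all, so its tail values were the most precise. Its median tail in the PABPC1 library was 87 nt in uninduced cells (95% interval 83 to 93), followed by 109 (106 to 114) at the lowest level, 99 (95 to 103), 90 (86 to 92) and 96 nt (92 to 101). With PABP1212 the uninduced median was 85 nt (82 to 87), followed by 120 (115 to 124), 92 (90 to 94), 78 (77 to 80) and 81 nt (80 to 82). The lowest level was thus highest in both libraries, and with PABP1212 the second-highest level lay under the uninduced cells without overlap of the intervals, while the interval of the highest level met theirs at 82 nt. These intervals, like all those below for single subsamples, cover counting error only.

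The shape of the EEF1A1 distribution differed between the libraries at the same level. Tails of at least 150 nt made up 34.1% of EEF1A1 reads at the lowest PABP1212 level (exact 95% interval 32.1% to 36.2%) and 21.6% (19% to 24.4%) at the lowest PABPC1 level, against 11.2% and 12.2% in the uninduced cells. Tails under 30 nt made up 11.3% (10.7% to 11.9%) at the second-highest PABP1212 level and 6.21% (5.23% to 7.32%) at the second-highest PABPC1 level, against 5.5% and 5.65% in the uninduced cells. Long tails were therefore most frequent at the lowest level of PABP1212, and short tails at its upper levels, within the same mRNA. The median shares over the 914 sites ran the same way, so this was not particular to EEF1A1. Long tails were at 37.9% at the lowest PABP1212 level and 28.6% at the lowest PABPC1 level. Short tails were at 13.7% at the second-highest PABP1212 level and 6.43% at the second-highest PABPC1 level.

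**Figure D1:**
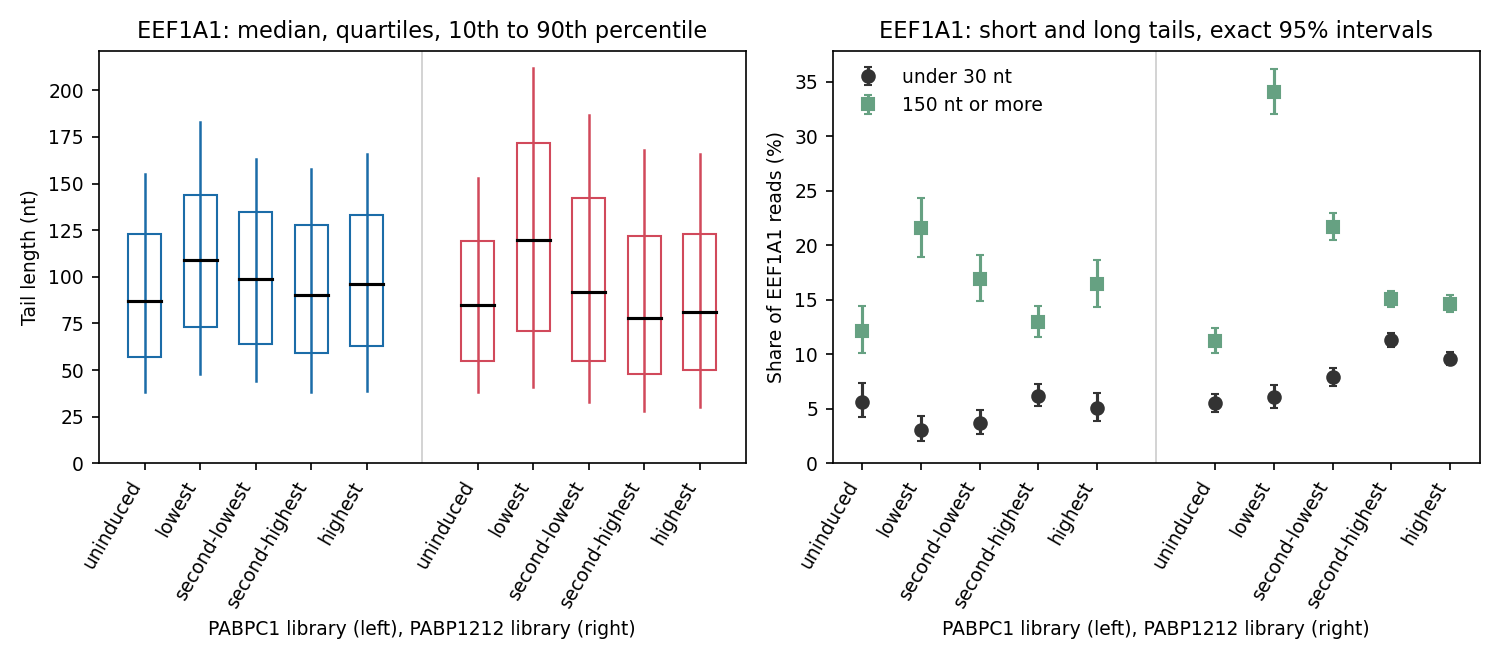
Tail length of EEF1A1 reads in each subsample (left, nt; line, median; box, quartiles; whisker, 10th to 90th percentile) and the share of reads with tails under 30 nt or of at least 150 nt (right, %, with exact 95% intervals). The lowest PABP1212 level has the widest box, from 71 to 172 nt, and the highest share of long tails, 34.1%. The median share of long tails over the 914 sites was also highest there, at 37.9%.

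EEF2, the translocase, had tails near the middle of all sites. Its median tail in the PABPC1 library was 90 nt in uninduced cells, then 117, 107.5, 95.5 and 101 nt, from 133 to 326 reads. With PABP1212 it was 91 nt in uninduced cells, then 111, 87, 80 and 84 nt, from 273 to 1511 reads. The EEF2 medians were at percentiles 24.9 to 61.1 of the 914 sites and lay on both sides of the median over sites.

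The exchange factor subunits had shorter tails than most sites. EEF1B2, the catalytic subunit, had a median of 81 nt in uninduced cells of the PABPC1 library, then 89, 96, 77 and 84.5 nt, from 83 to 209 reads. With PABP1212 its median was 72 nt in uninduced cells, then 100, 71, 58 and 59.5 nt, from 177 to 920 reads. It lay under the median over the 914 sites in all 10 subsamples, at percentiles 2.63 to 32.8. With PABP1212 the upper 2 levels of EEF1B2, at 58 nt (54 to 63) and 59.5 nt (56 to 64), were under the uninduced cells at 72 nt (66 to 77).

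EEF1D, another exchange subunit, had 41 to 112 reads per subsample with PABPC1 and 61 to 507 with PABP1212, so its intervals were wide. Its PABPC1 medians were 86 nt in uninduced cells and 113, 92, 90 and 82 nt in sorted cells, and every pair of these intervals overlapped. Its PABP1212 medians were 87 nt in uninduced cells and 100, 84, 69 and 62 nt, where the highest level (56 to 69 nt) was under the uninduced interval (74 to 100 nt). EEF1D, too, lay under the median over sites in all 10 subsamples.

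TPT1 at its main site also had short tails throughout. In the PABPC1 library its median was 80 nt in uninduced cells, then 98, 89, 78 and 79 nt, from 259 to 889 reads. With PABP1212 it was 79 nt in uninduced cells, then 98, 79, 63 and 62 nt, from 609 to 2584 reads. The medians stayed between percentiles 6.95 and 19.6 of the 914 sites, the narrowest range among the 6 sites. Tails under 30 nt made up 18.9% (17.4% to 20.4%) of main-site reads at the second-highest PABP1212 level, against 9.7% (7.69% to 12%) in the uninduced cells. The median shares over the 914 sites were 13.7% and 5.21% in these subsamples.

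The second TPT1 site carried few reads in the PABPC1 library, 15 of them in the uninduced cells. Its PABPC1 medians were 120 nt in uninduced cells and 115, 92, 92 and 95 nt in sorted cells. Its PABP1212 medians were 83 nt in uninduced cells and 129, 83, 78.5 and 82 nt. At the upper 2 PABP1212 levels the tails of the second site, with intervals of 70 to 86 and 74 to 88 nt, were longer than those of the main site, at 60 to 66 and 60 to 64 nt.

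**Figure D2:**
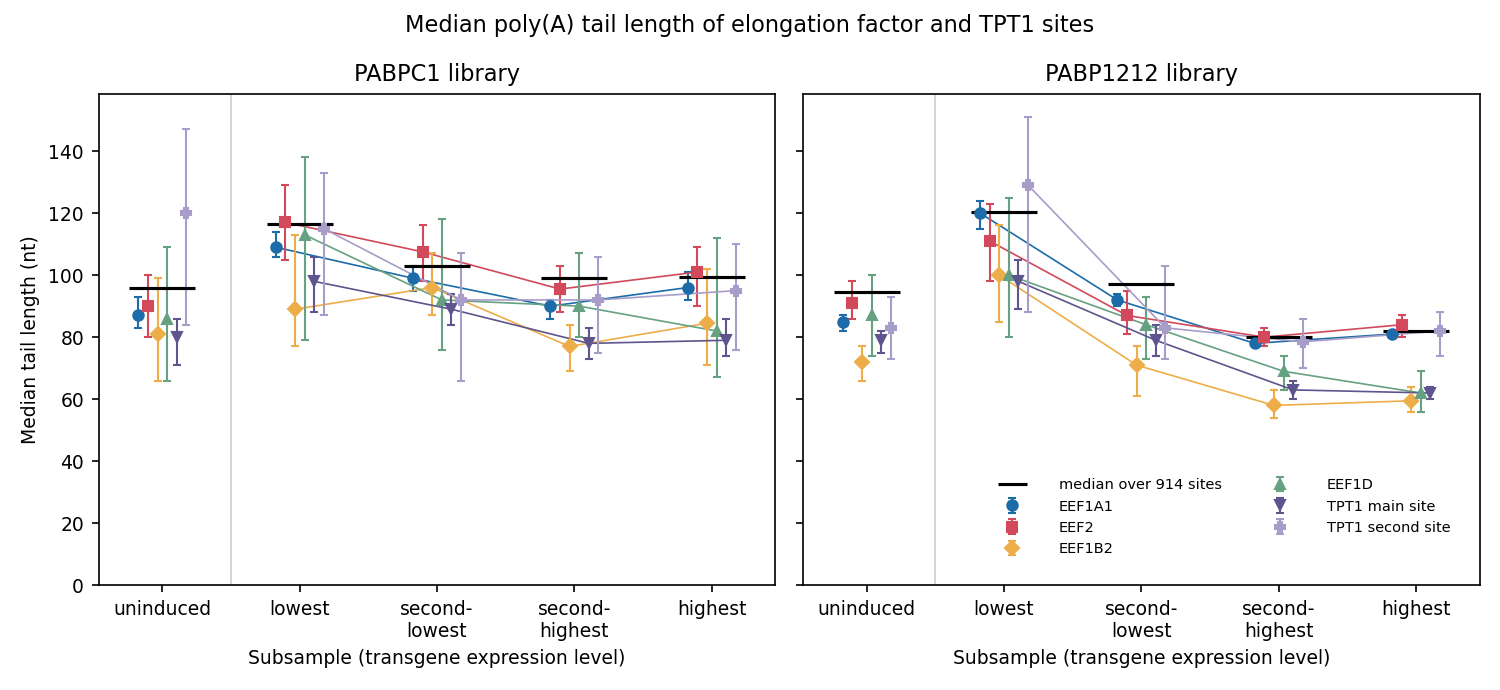
Median tail length (nt) of the 6 sites in each subsample of the PABPC1 library (left) and the PABP1212 library (right), with 95% intervals from order statistics, and the median over 914 sites as a black bar. In the PABP1212 library all 6 sites are longest at the lowest level. EEF1A1, EEF1B2, EEF1D and the TPT1 main site lie under the black bar in every subsample of both libraries.

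Against the uninduced cells, 5 of the 6 sites had a higher median at the lowest PABPC1 level, with a median difference of 20 nt, and 82.1% of the 914 sites did so, also with a median of 20 nt. At the lowest PABP1212 level all 6 were higher, by a median of 24 nt, as were 91% of the sites, by 25.75 nt. At the second-highest PABP1212 level all 6 were lower, with a median difference of −12.5 nt, as were 86.7% of the sites, at −15 nt. At the highest PABP1212 level all 6 were lower, with a median difference of −9.75 nt, as were 83.8% of the sites, at −13.25 nt. At the second-lowest PABPC1 level 5 of the 6 were higher, with a median difference of 10.5 nt, as were 64.4% of the sites, at 7 nt. At each of the upper 2 PABPC1 levels 3 were higher and 3 lower, and 51% and 55.6% of the sites were higher. At the second-lowest PABP1212 level 1 was higher and 3 were lower, with a median difference of −0.5 nt, while 53.3% of the sites were higher, at 1 nt. Most members and most sites thus lay on the same side of the uninduced cells at the lower 2 PABPC1 levels and at the lowest and upper 2 PABP1212 levels, but not at the other 3.

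Whether tails changed over the 4 levels was tested with limma on the mean of log2(nt + 1) per site, with Benjamini-Hochberg adjustment over all 914 sites. With PABP1212, 2 of the 6 sites fell, EEF1A1 and the TPT1 main site, and 15.2% of all sites passed with a lower value. The slope was −0.12 ± 0.031 log2 per level for EEF1A1 (SE, limma adjusted p = 0.0146) and −0.16 ± 0.035 for the TPT1 main site (limma adjusted p = 0.00596). The slopes of EEF1B2 (−0.14 ± 0.050, limma adjusted p = 0.069), EEF1D (−0.16 ± 0.059, 0.0806), EEF2 (−0.059 ± 0.040, 0.261) and the second TPT1 site (−0.097 ± 0.062, 0.248) were also negative and did not pass. The median slope was −0.13 over the 6 sites and −0.14 over all sites, and the EEF2 slope stood at percentile 87.1 of all slopes. Both calls were lost without the lowest PABP1212 level (limma adjusted p = 0.466 for EEF1A1 and 0.185 for the TPT1 main site), where 1.2% of all sites passed, and without the second-lowest (0.132 and 0.0972), where 1.42% did. They were also lost without weights (0.112 and 0.0667), although 25.3% of sites then passed. Without the highest PABPC1 level, which gives part of the pooled spread, the EEF1A1 call was lost at 0.0689 and 7.77% of sites passed. Relative to the median site of each subsample the EEF1A1 slope was 0.022 and the TPT1 main site slope −0.017, and neither passed.

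With PABPC1, limma called 0 of the 6 sites and 0 of 914 sites (0%), and at an unadjusted p under 0.05 there were 0 members and 15 sites. The slopes of the 6 sites were all negative, from −0.13 ± 0.11 log2 per level for EEF1D to −0.024 ± 0.12 for the second TPT1 site, with a median of −0.085, against −0.083 over all sites. The difference in slope between the libraries was not called for any member or site (0%; unadjusted p under 0.05 for 0 members and 2 sites). It was −0.047 ± 0.068 for EEF1A1 and −0.041 ± 0.066 for the TPT1 main site, so neither library was shown to differ from the other in these mRNAs. Without the highest PABP1212 level, 3 of the 6 differences passed, and 15.2% of all sites did. Sorted cells as a whole against uninduced cells gave 0 calls in either library (0% of 914 sites; unadjusted p under 0.05 for 0 members, and for 1 site with PABPC1 and 34 with PABP1212), and the difference between the libraries in this change also gave 0 calls (0%; 0 members and 2 sites unadjusted).

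The level of each mRNA was taken from its reads, 1 per molecule, as CPM (the site's reads relative to all reads of the subsample), scaled by the median ratio over sites. These are relative levels within a subsample, from an input of 1 µg total RNA, and do not give the amount of an mRNA per cell. Whether fewer cells held an mRNA or each cell held less of it cannot be told apart in such values. EEF1A1 was at 14496 scaled CPM in uninduced cells of the PABPC1 library and at 13163, 12589, 11087 and 11948 in sorted cells. With PABP1212 it was at 15102 in uninduced cells and at 13539, 14218, 14888 and 15368. With PABPC1 all 4 sorted values of EEF1A1 lay under the uninduced value (95% interval 13574 to 15464), and from the second-lowest level up their intervals (11908 to 13299, 10622 to 11566 and 11288 to 12637) did not overlap it. This change from uninduced, −0.25 ± 0.11 log2, did not pass (limma adjusted p = 0.0922, unadjusted 0.032), but passed with each library fitted alone (0.0384) and without the lowest PABP1212 level (0.0222). The EEF1A1 change with PABP1212, −0.060 ± 0.11, and both EEF1A1 slopes in level did not pass.

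With PABP1212, all 6 sites had a positive slope in level over the 4 levels, as did 72.9% of the 801 sites tested. The median slope was 0.119 log2 per level over the 6 sites and 0.115 over all sites. Of the 6, 2 passed, EEF1D and EEF2, while 19% of all sites passed with a higher value and 3.25% with a lower one. EEF1D was at 727 scaled CPM in uninduced cells (95% interval 611 to 857) and at 390.5 (299 to 502), 674 (586 to 771), 803 (735 to 876) and 796 (724 to 872) in sorted cells. The lowest level was thus the lone value under the others, and its interval overlapped none of them. The EEF1D slope was 0.33 ± 0.086 log2 per level (limma adjusted p = 0.0172). EEF2 was at 2237 in uninduced cells and at 1748, 1999, 2393 and 2517 in sorted cells, with a slope of 0.18 ± 0.058 (limma adjusted p = 0.0356). Without the lowest PABP1212 level neither passed (limma adjusted p = 0.92 for EEF1D, whose slope was then 0.12, and 0.853 for EEF2), and neither passed with a minimum mean of 10 reads (0.113 and 0.143) or with none (0.287 and 0.367). In these 3 settings 0.125%, 0.187% and 0.0334% of the sites passed in either direction, against 22.2% before. EEF2 also failed the threshold with scaling by total reads (limma adjusted p = 0.118) and without the second-highest level of either library or the highest PABP1212 level (0.0646 to 0.121).

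With PABPC1 0 of the 6 levels had a slope that passed limma, with voom weights as without, while 13% of 801 sites did (9.99% higher and 3% lower). At an unadjusted p under 0.05 there was 1 member, the second TPT1 site, at 0.20 ± 0.078 log2 per level (limma adjusted p = 0.0915). The other 5 slopes were negative, from −0.075 ± 0.052 for the TPT1 main site to −0.026 ± 0.058 for EEF2, while 33.1% of all sites had a negative slope and the median over sites was 0.078. EEF1D with PABPC1 was at 961 scaled CPM in uninduced cells and at 585, 651, 580 and 517 in sorted cells. The difference in slope between the libraries was 0.40 ± 0.12 for EEF1D (limma adjusted p = 0.648, unadjusted 0.00476) and 0.21 ± 0.082 for EEF2 (0.648, unadjusted 0.0221). Limma called 0 of 801 differences (0%), with 2 members at an unadjusted p under 0.05 among 33 higher and 20 lower sites, and voom weights called 0 members.

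**Figure D3:**
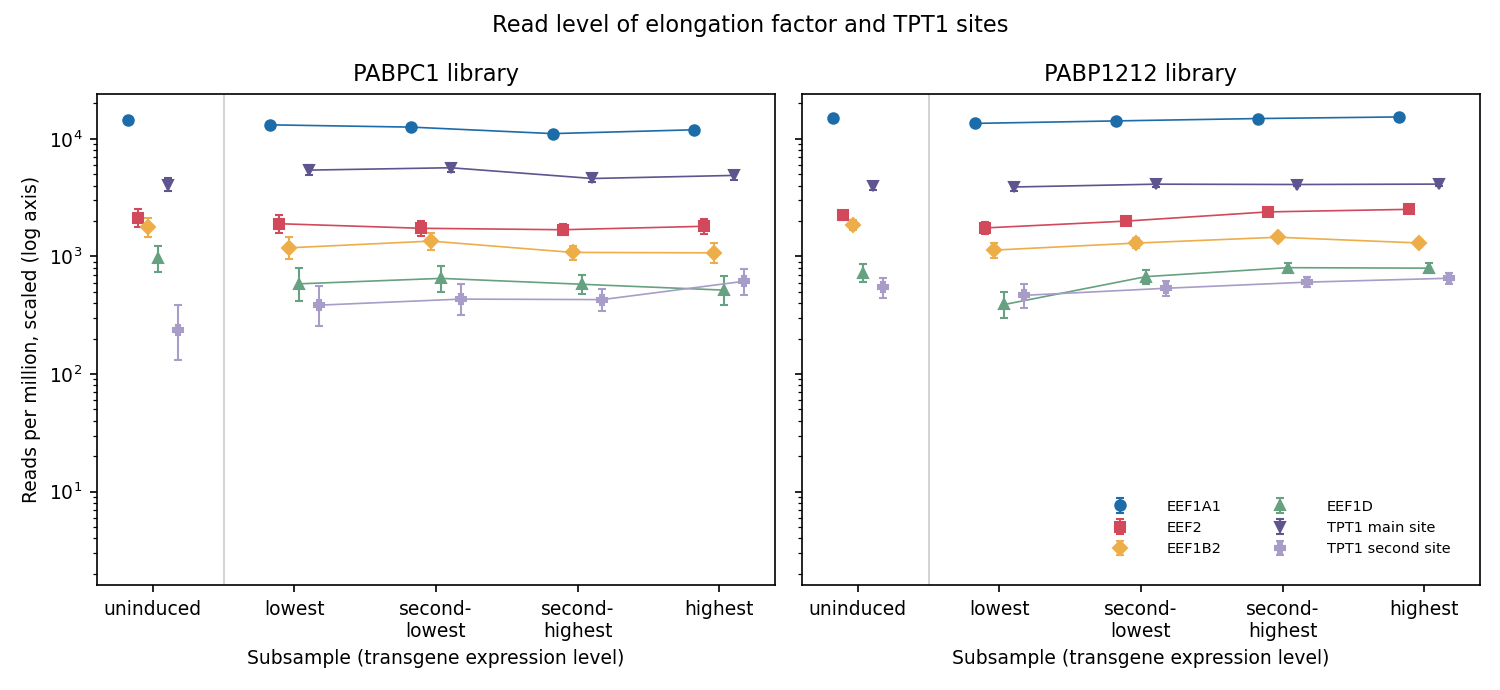
Scaled CPM (log axis) of the 6 sites in each subsample of the PABPC1 library (left) and the PABP1212 library (right), with exact Poisson 95% intervals. EEF1D at the lowest PABP1212 level, 390.5, lies under its other 4 values in that library.

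Between sorted and uninduced cells of the PABPC1 library, 3 of the 6 sites passed the test of level, and 25.1% of the 801 sites did (9.86% higher and 15.2% lower). The uninduced cells are 1 subsample of 1 barcode in each library, whose own scatter was not measured, and the test assumes that it equals the scatter of the sorted levels about their course. EEF1B2 was lower in sorted cells, from 1780 scaled CPM in uninduced cells to 1185, 1352, 1082 and 1074 in the sorted levels, a change of −0.61 ± 0.17 log2 (limma adjusted p = 0.0195). EEF1D was also lower, with a change of −0.72 ± 0.21 log2 (limma adjusted p = 0.0243), its uninduced value lying above those of all 4 levels. The second TPT1 site was higher, with a change of 0.95 ± 0.20 (limma adjusted p = 0.00404), from 236 (132 to 390) in uninduced cells to 386, 434, 430 and 615. The TPT1 main site was at 4081 in uninduced cells and at 5425, 5683, 4603 and 4891 in the sorted levels, a change of 0.33 ± 0.13 that did not pass (limma adjusted p = 0.0757). It passed with scaling by total reads (0.43, limma adjusted p = 0.0136) and without the lowest PABP1212 level (0.034), and both TPT1 sites summed passed at 0.38 ± 0.13 (0.045). Without the second-highest PABPC1 level the calls of EEF1B2 (0.058) and EEF1D (0.0584) were lost, and with voom weights those of EEF1D (0.0556) and the second TPT1 site (0.0501). With no minimum of reads EEF1D was at 0.058. Of 4 epithelial marker sites tested in the same contrast, 1 site of CLDN7 was higher (1.49, limma adjusted p = 0.000986, from 9 reads in uninduced cells) and 0 were lower, and the part of cell state in the member changes was not tested.

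In the PABP1212 library the same contrast called 0 of the 6 sites and 12.5% of the 801 sites (2% higher and 10.5% lower). EEF1B2 was at 1853 scaled CPM in uninduced cells and at 1133, 1300, 1457 and 1302 in the sorted levels, all 4 of them lower. Its change of −0.52 ± 0.17 log2 had a limma adjusted p of 0.0582 (unadjusted 0.00852, the lone member under 0.05) and passed with voom weights at 0.0285. EEF1D changed by −0.18 ± 0.21 and the second TPT1 site by 0.042 ± 0.20 in this library, and neither passed. Of the 4 epithelial marker sites, KRT8 was lower in this library (−0.47, limma adjusted p = 0.0382) and 0 were higher. The difference between the libraries called 0 members and 0.624% of the sites, with 1 member at an unadjusted p under 0.05 and 0 members called with voom weights. That member was the second TPT1 site, at −0.91 ± 0.28 (limma adjusted p = 0.253).

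**Figure D4:**
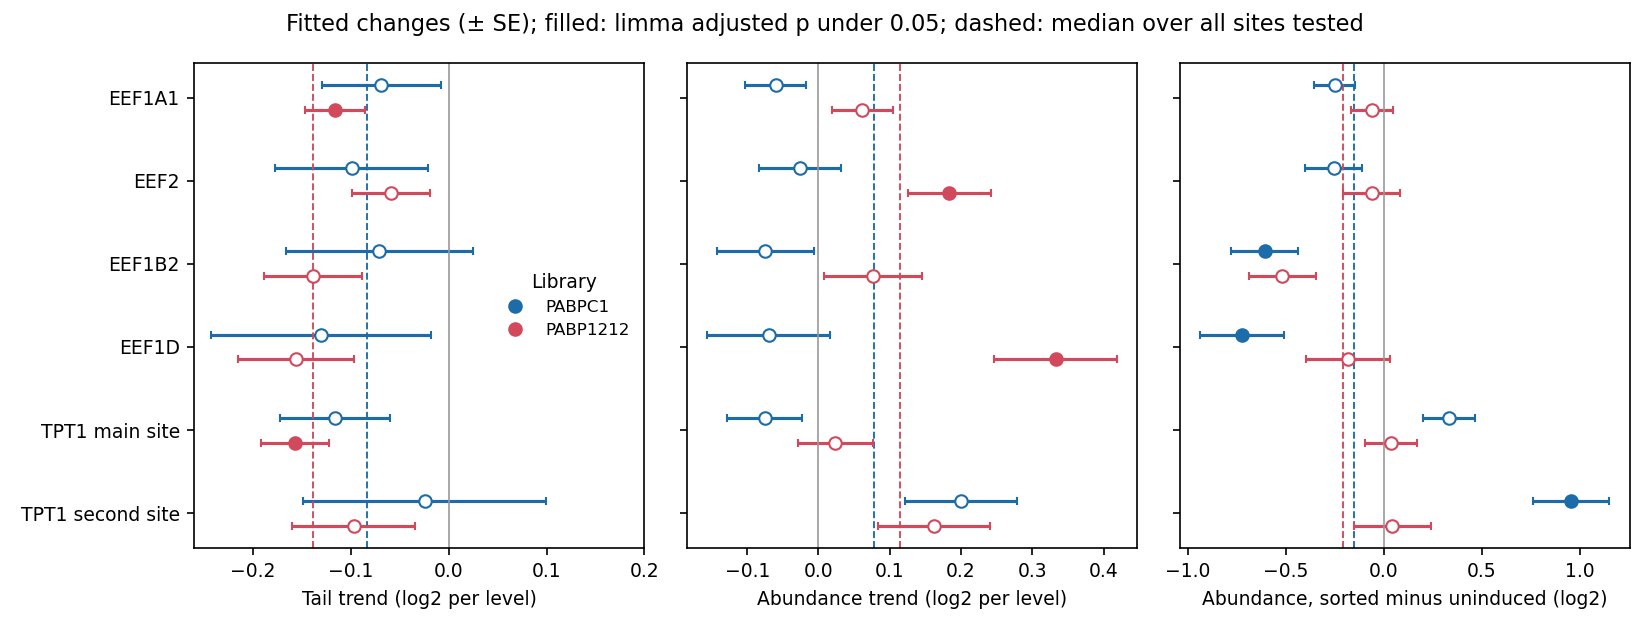
Fitted changes with SE for the 6 sites: tail slope per level, level slope per level, and level in sorted minus uninduced cells (all log2). Filled points passed limma at an adjusted p under 0.05, and dashed lines give the median over all sites tested. Among the PABP1212 tail slopes EEF2, at −0.059, lies farthest from the line.

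The share of TPT1 reads ending at the second site was lower in the PABPC1 library at each level, with intervals that overlapped at the lowest and the highest level. It was 5.47% (exact 95% interval 3.1% to 8.87%) in uninduced cells, then 6.63%, 7.1%, 8.54% and 11.2% (8.69% to 14.1%) in the sorted cells. With PABP1212 it was 12.1% (10% to 14.5%) in uninduced cells, then 10.7%, 11.5%, 12.9% and 13.7% (12.4% to 15%). The uninduced cells, whose treatment the deposited barcode table gives as none, already differed between the libraries without overlap of their intervals. A difference between the libraries in this share therefore cannot be told apart from a difference between the lines or preparations. The second TPT1 site had 15 reads in the PABPC1 uninduced cells, on which its called difference in that library rests.

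**Figure D5:**
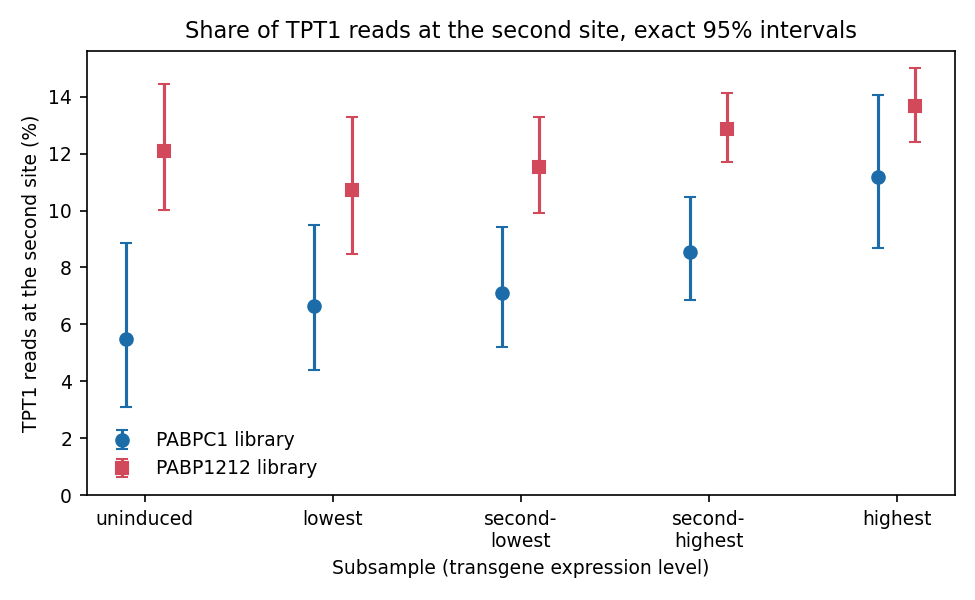
Share of TPT1 reads (%) at the second, more distal site in each subsample, with exact 95% intervals. The PABPC1 values run from 5.47% in uninduced cells to 11.2% at the highest level, and the PABP1212 values lie between 10.7% and 13.7%.

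Other genes of the pathway were looked for at annotated transcript ends by the spacing of sites. Of 16 genes of elongation, hypusination and release, 3 could be placed, EIF5A, EEF1A2 and ETF1, and 2 of their sites were deep enough to test. EIF5A, the hypusinated factor that helps the ribosome past difficult peptide bonds, fell in tail length with PABP1212 (−0.16 log2 per level, limma adjusted p = 0.00656), from a median of 131 nt at the lowest level to 73 nt at the highest. Its level rose over the levels in both libraries (0.24 log2 per level with PABPC1, limma adjusted p = 0.0353, and 0.31 with PABP1212, 0.00918), and it was lower in sorted than in uninduced cells (−0.94 log2, 0.00163, and −0.54, 0.046). EEF1A2, the tissue-restricted paralogue of EEF1A1, passed in neither measure. EEF1A1 and EEF1A2 have similar coding sequences and EEF1A1 has processed pseudogenes, and how reads were divided among such copies was not tested.

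Of 15 other TOP mRNAs, 7 could be placed, and 7 of their 9 sites were tested. With PABP1212 the tail slope was lower for 4 of these 7 sites and higher for 0, with a median of −0.15 log2 per level, against 15.2% lower and a median of −0.14 over all sites. The 4 were RACK1, a ribosome-bound scaffold (−0.21, limma adjusted p = 0.00412), NACA, a subunit of the nascent chain complex (−0.23, 0.00383), FAU, which encodes a ribosomal protein fused to a ubiquitin-like protein (−0.15, 0.0145), and the more downstream site of HNRNPA1 (−0.16, 0.0436). In level, NACA (−0.82 log2, limma adjusted p = 0.00236) and the more upstream site of HNRNPA1 (−0.55, 0.021) were lower in sorted than in uninduced cells with PABPC1, as were EEF1B2 and EEF1D. With PABPC1 0 of the 7 tail slopes passed limma, none of them among the 15 sites of unadjusted p under 0.05.

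The pattern of the members was taken as the median over the main sites of the measured genes, without the second TPT1 site. The non-member sites whose tails over the 10 subsamples were most like it lay at chr1, 44443967 (plus strand), chr1, 93307478 (plus strand) and chr11, 319617 (minus strand). Their root-mean-square distance from this median pattern, on the log2 scale and after centring each site, was 0.0323, 0.0368 and 0.0402, against a median of 0.145 over all non-member sites. Among the members themselves the TPT1 main site was nearest, at 0.0368, and the second TPT1 site, which had no part in the pattern, farthest, at 0.164.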

How the data were processed

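Per the file headers, the deposited tables hold 1 row per read with its subsample, poly(A) site and tail length in nt. The labels' protocols give SQK-RNA004 direct RNA sequencing of 1 µg total RNA with custom barcoded adapters. Each sorted level had 3 barcodes, merged by the authors, and each uninduced subsample 1. Tools named in the submitters' processing notes are minimap2 and Bowtie2, with the build hg38. The caller of tail lengths is not given in the sources used here. The positions follow hg19 and none was converted. Reads whose subsample name is missing from the barcode table (2.86% and 5.63% of the tables) were not used.

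Reads were counted here per site. Tails were fitted as the mean of log2(nt + 1), weighted by reads, and levels as log2(CPM + 1) after median-ratio scaling, with a variance trend, in limma 3.58.1 (R 4.3.3). Terms were library, replacement and centred level within library, leaving 4 residual degrees of freedom. The fit takes the scatter of the uninduced subsamples to equal that of the levels. P-values were Benjamini-Hochberg adjusted over all sites, with a threshold of 0.05. Alternatives covered short tails, weights, filters, scaling, voom weights, single libraries and leaving out each subsample. Fits were tested on simulated data.

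For single subsamples, medians have intervals from order statistics, shares exact Clopper-Pearson and CPM exact Poisson intervals, at 95%. Named were all member sites, the listed pathway and marker genes, and the 3 sites most alike. Other genes were named where at least 8 neighbouring sites within 1.5 Mb matched the spacing of GENCODE v29 ends to 10 nt. The PABP1212 level results of the other TOP mRNAs are not reported here. The members and lists were chosen with earlier results of these data known. Other steps used pandas 2.3.3 and SciPy 1.17.1 in Python 3.11.15.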

Additional observations from a re-analysis of the deposited data

How the results depend on the processing

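No paired analysis was possible because each level is a single subsample and the labels give no replicate numbers. Counts of members called are given with the share of all sites called in the same setting. For PABP1212 tail slopes, 2 (15.2%) became 5 without tails of 0 nt (47.7%), 4 without tails under 10 nt (47.1%), 6 on mean nt (44.5%), 4 on site medians (30.2%), 0 without weights (25.3%) and 0 with subsample medians subtracted (1.09%), which leaves changes relative to the median site. Leaving out single subsamples gave 0 to 6, with 0 without the lowest (1.2%) or second-lowest (1.42%) PABP1212 level, 1 without the highest PABPC1 level (7.77%) and 6 without the second-highest (53.6%) or highest (72.8%) PABP1212 level. The tail slope difference between libraries gave 0 to 3 calls on leaving out subsamples, with 3 without the highest PABP1212 level (15.2%). The PABP1212 tail change from uninduced went from 0 to 1 with medians subtracted (0.219%). The PABP1212 level slopes, 2 (22.2%), gave 1 call with total reads (14.2%), 0 at a mean of 10 reads (0.187%), 0 without a filter (0.0334%) and 0 to 2 on leaving out subsamples (0.125% at 0). PABPC1 level changes from uninduced, 3 (25.1%), gave 1 with voom weights (14%), 4 with total reads (27.3%), 4 with each library fitted alone (20.7%) and 1 to 5 on leaving out subsamples, with 1 without the second-highest PABPC1 level (19.7%) and 5 without the lowest PABP1212 level (29%). For PABP1212 they went from 0 (12.5%) to 1 with voom weights (21%), 1 with each library fitted alone (22.8%) and 0 to 1 on leaving out subsamples, as did their difference between libraries (0 to 1, with 1 without the lowest PABPC1 level, 2.87%).

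Some slopes and changes turned sign. With medians subtracted the tail slopes were 0.013 (EEF1A1), 0.011 (EEF1B2) and 0.046 (second TPT1 site) with PABPC1, and 0.022 (EEF1A1), 0.071 (EEF2) and 0.034 (second TPT1 site) with PABP1212. Leaving out single subsamples, the tail slope ran from −0.14 to 0.036 for the second TPT1 site with PABPC1 and from −0.19 to 0.0097 for EEF2 with PABP1212. The PABPC1 level slope of EEF2 ran from −0.085 to 0.028. The PABP1212 level change ran from −0.14 to 0.035 for EEF2, from −0.29 to 0.055 for EEF1D and from −0.031 to 0.13 for the second TPT1 site. The turns came without the library's own lowest level, and for the last without the highest. Scaling by total reads moved the median PABP1212 level change over all sites from −0.21 to −0.035. Under it the PABP1212 level changes of EEF1A1 and EEF2 were 0.12 and 0.11, and the PABP1212 level slope of the TPT1 main site was −0.037. None of these values of turned sign passed the test, and the cause was not tested. All 120 median tails recomputed without tails of 0 nt or under 10 nt stayed within their intervals. Depth limits the PABPC1 values of EEF1D and the second TPT1 site most, at 41 to 112 and 15 to 83 reads.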
